A study of Rattus norvegicus with 6 samples.

Results

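The vascular miRNAs described here are 4 assays of a TaqMan rodent card, mmu-miR-126-3p, mmu-miR-126-5p, mmu-miR-143 and mmu-miR-145. They were chosen by name among the 375 miRNA assays of the card, with earlier results of these data known. The card was run on RNA of MDCs (myocyte-derived cells) and of myocytes, both from the hearts of Wistar-Kyoto rats aged 2 months, with 3 deposited sets in each group. MDCs are the small, loosely attached cells that the study collected by pipetting from above cultures of purified cardiomyocytes in mitogen-rich medium. The myocytes are the purified cardiomyocytes themselves, which the study describes as freshly isolated, while the labels state a culture of 2 weeks for every set. The comparison asks how miRNA levels differ between the sets labeled MDC and the sets labeled myocyte.

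A miRNA is a short RNA that binds mRNAs through its seed, the bases 2 to 8 from its 5′ end, and lowers their translation and stability. miR-126 is the best known miRNA of endothelial cells, the cells that line blood vessels, and it is processed from an intron of Egfl7, an endothelial gene. Both arms of its hairpin are used. The 3p arm relieves repression of VEGF signaling in mice and zebrafish by lowering the inhibitors Spred1 and the PI3-kinase subunit p85β, and the 5p arm sustains endothelial proliferation in mice by lowering the Notch ligand Dlk1. miR-143 and miR-145 come from a shared primary transcript, are abundant in smooth muscle, and hold smooth muscle cells in their contractile state. miR-145 acts there on regulators such as Klf4 and Klf5. Neither pair is made by 1 cell type alone, and miR-145 is also found in fibroblasts and in other mesenchymal cells.

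The mature rat sequences of these miRNAs in RefSeq (GRCr8) are shown, since each assay reads only 1 arm of a hairpin and the 4 seeds largely decide which mRNAs are bound. The seed is in capitals.
rno-miR-126a-3p: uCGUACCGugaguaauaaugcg
rno-miR-126a-5p: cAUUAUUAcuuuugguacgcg
rno-miR-143-3p: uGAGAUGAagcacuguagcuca
rno-miR-145-5p: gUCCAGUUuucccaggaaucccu

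Each of the 4 assays was assigned its rat miRNA by name, and no assay sequence was compared with the rat sequences. The card names give no arm for miR-143 and miR-145, and their older names stand for the 3p arm of miR-143 and the 5p arm of miR-145. The seeds of these miRNAs differ from each other, and 0 other mature miRNAs among the 693 rat miRNA names of the table carry any of them. Both arms of miR-126 lie on the plus strand of chromosome 3, the 5p arm at chr3:29813182-29813202 and the 3p arm at chr3:29813219-29813240, within the span of Egfl7 (chr3:29802481-29814966). RefSeq names this hairpin Mir126b and has another miRNA gene, Mir126a, on the opposite strand over it. miR-143-3p (chr18:57371373-57371394) and miR-145-5p (chr18:57370033-57370055) lie on the minus strand of chromosome 18. Their hairpins are 1278 bases apart, and both lie within the span of Carmn, a long non-coding RNA gene of the cardiovascular lineages.

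Each well gave a Ct, the PCR cycle at which fluorescence passed a threshold, so that a lower Ct means more template. Between 201 and 212 of the 375 miRNA assays gave signal in a set. Levels are given on a log2 scale, as minus the Ct of the assay after subtraction of the U6 Ct averaged over its wells in that set, and 1 unit stands for a doubling of template. The mean U6 Ct was 14.0, 13.4 and 14.4 in MDC 1, MDC 2 and MDC 3, and 14.7, 14.9 and 15.1 in Myocyte 1, Myocyte 2 and Myocyte 3. The number of molecules behind a Ct is unknown, and the number of cards limits the precision.

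The deposited sets did not all have the differences seen between separate samples. No well differed between the 3 MDC sets, or between Myocyte 2 and Myocyte 3, in whether it gave signal, whereas Myocyte 1 and Myocyte 2 differed in 23 wells. In Ct, Myocyte 2 and Myocyte 3 differed by a nearly constant 0.21 cycles (SD 0.09 over 210 wells) and MDC 2 and MDC 3 by 1.09 cycles (SD 0.38 over 208 wells). MDC 1 stood apart in the form of its numbers. Of its 208 wells with signal, 207 had a Ct within 0.1 cycles of a whole number, against 35 to 45 wells in each of the other 5 sets (16.7% to 21.6%). The Ct values of the vascular miRNAs in MDC 1 were 0.0225 to 0.0377 cycles from a whole number. From MDC 2 and MDC 3 its Ct differed with an SD of 1.09 and 1.42 cycles. This is more than the SD of 0.49 cycles between Myocyte 1 and Myocyte 2, which were kept as separate cards. How MDC 1 was read is not given in the sources used here, and the results are also given without this set. Sets with the same wells of signal and the same order among their U6 wells were averaged as readings of 1 card, a choice made with earlier results of these data known, which leaves 1 MDC card and 2 myocyte cards, named here by Myocyte 1 and by the mean of Myocyte 2 and Myocyte 3. The labels speak of 3 batches and the methods of 2 biological and 2 technical repeats, so that the spread between the myocyte cards may be technical.

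**Figure D1:**
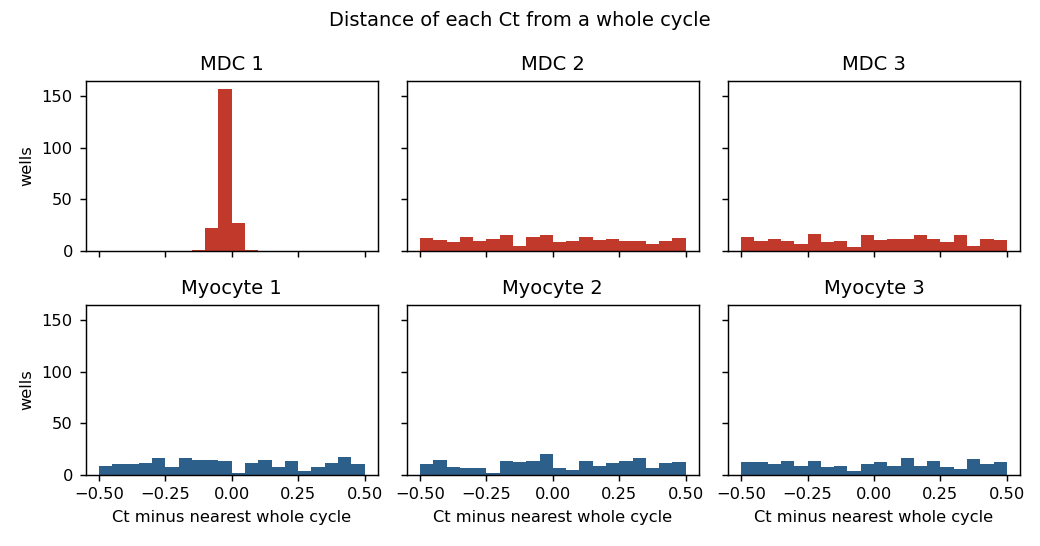
Number of wells (y axis) by the distance of their Ct from the nearest whole cycle (x axis, cycles), for every well with signal in the 3 MDC sets (top) and the 3 myocyte sets (bottom). In MDC 1, 207 of 208 wells lie within 0.1 cycles of a whole number, and the other sets are spread over the whole range.

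Relative to U6, the endothelial miRNA miR-126 was far lower in MDCs, and it was lower by differing amounts with 6 other settings, raw Ct among them, and higher with U87. mmu-miR-126-3p had Ct values of 26.98, 25.004 and 25.97 in the MDC sets, against 18.59, 18.43 and 18.59 in the myocyte sets. Its levels were −13.00, −11.61 and −11.53 in MDC 1, MDC 2 and MDC 3, and −3.91, −3.52 and −3.48 in Myocyte 1, Myocyte 2 and Myocyte 3. All MDC readings were thus far below all myocyte sets, and MDC 1 was the lowest of them. mmu-miR-126-5p, read from the other arm of the same hairpin, had Ct values of 30.02, 27.99 and 29.21 in the MDC sets, against 21.97, 21.89 and 22.01 in the myocyte sets. Its levels were −16.05, −14.60 and −14.78 in the MDC sets, and −7.29, −6.98 and −6.90 in the myocyte sets, again without overlap.

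The smooth muscle pair was lower in MDCs by much less, and it turned higher where Y1, U87 or the mean of the 3 other controls replaced U6. mmu-miR-143 had Ct values of 20.96, 18.66 and 19.50 in the MDC sets, against 17.93, 17.97 and 18.09 in the myocyte sets. Its levels were −6.99, −5.27 and −5.06 in the MDC sets, and −3.25, −3.06 and −2.98 in the myocyte sets. The groups did not overlap, and MDC 1 was well below both other MDC sets. mmu-miR-145 had Ct values of 16.97, 15.44 and 16.31 in the MDC sets, against 14.90, 15.34 and 15.53 in the myocyte sets, so that the raw Ct of MDC 2 was earlier than that of Myocyte 3. After subtraction of U6, its levels were −2.99, −2.05 and −1.88 in the MDC sets, and −0.21, −0.43 and −0.41 in the myocyte sets, with no overlap. The MDC readings of each vascular miRNA are taken as 1 card, and how many other miRNAs had no overlap is not given here.

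**Figure D2:**
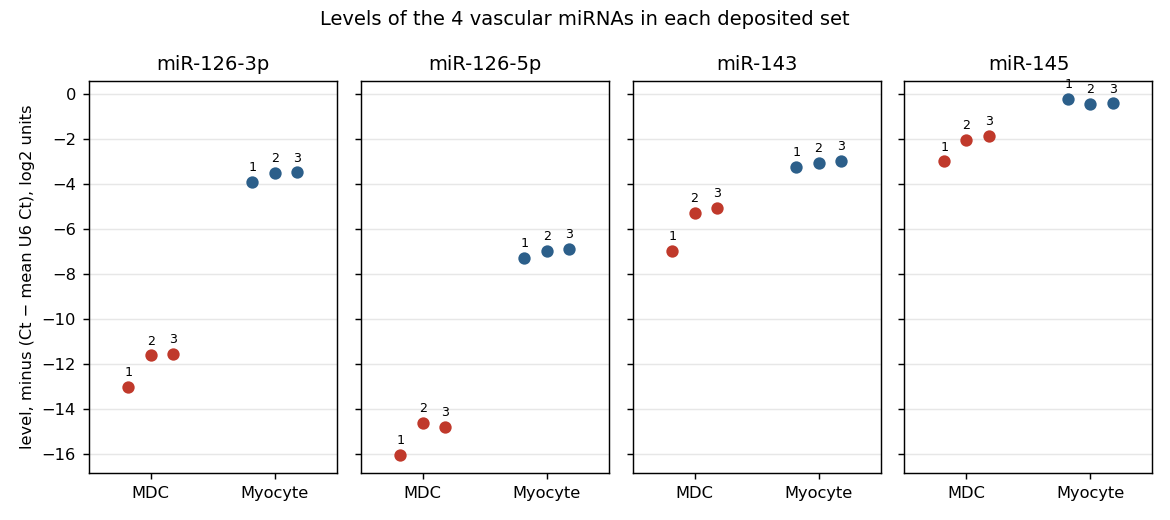
Level of each vascular miRNA (y axis, minus the difference between Ct and mean U6 Ct, log2 units) in the 3 MDC sets (red) and the 3 myocyte sets (blue), with the set number above each point. The MDC readings of miR-126-3p lie between −13.00 and −11.53, and those of miR-145 between −2.99 and −1.88. With U87 as normalizer all 4 turn higher in MDCs, as do miR-143 and miR-145 with Y1 or the mean of the 3 other controls.

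Differences between the MDC card and the 2 myocyte cards were fitted with limma over the 157 miRNAs with signal on every card. With 1 MDC card, the standard errors and p-values rest on the spread between the myocyte cards alone, so that they compare these cards and not the cell types. miR-126-3p had a mean level of −12.05 in MDCs and of −3.70 ± 0.29 in myocytes (SD, n = 2 cards), a difference of −8.35 ± 0.35 log2 units (SE) or 325-fold lower (limma adjusted p = 2.91e-53). miR-126-5p had a mean level of −15.14 in MDCs and of −7.12 ± 0.25 in myocytes (SD, n = 2 cards), a difference of −8.03 ± 0.35 or 260-fold lower (limma adjusted p = 3.03e-51). MDCs thus held 0.308% and 0.384% of the myocyte level of these arms. miR-143 had a mean level of −5.77 in MDCs and of −3.13 ± 0.16 in myocytes (SD, n = 2 cards), a difference of −2.64 ± 0.35 or 6.24-fold lower (limma adjusted p = 6.36e-12). miR-145 had a mean level of −2.31 in MDCs and of −0.32 ± 0.15 in myocytes (SD, n = 2 cards), a difference of −1.99 ± 0.35 or 3.96-fold lower (limma adjusted p = 1.07e-07). In bulk RNA, fewer cells that make a miRNA and less of it per cell cannot be told apart. The study reported no cells with endothelial or stem cell markers in its purified myocytes by microscopy, and no non-myocyte transcripts by RT-PCR. It also reported an endothelial marker in spheres that formed from MDCs, and reads this as a potential of MDCs for several lineages in culture. The sets used here are labeled as MDCs and not as spheres. The cell content of the RNA on these cards was not tested here.

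Relative to U6, all 4 vascular miRNAs were called lower and 0 were called higher (with U87, 0 lower and 4 higher), where 82 of the 157 miRNAs tested (52.2%) were called lower and 44 (28%) were called higher. The median difference over all miRNAs tested was −0.80. Relative to this median, the differences were −7.54 for miR-126-3p, −7.22 for miR-126-5p, −1.84 for miR-143 and −1.18 for miR-145. The SD behind the p-values, 0.28, was set by limma to be the same for every miRNA, with 1 residual degree of freedom for each. A shift in U6 between the myocyte cards enters all miRNAs alike, so that they are not independent measures of this SD. All 4 p-values were orders of magnitude larger with raw Ct, the median of miRNAs as normalizer or missing values at 40. The MDC readings of 1 miRNA had an SD of 0.60 to 1.06, and variation among MDC cultures was not measured. With the spread of each miRNA on its own, by the unpaired test of the methods on the same cards, the adjusted p was 0.098 for miR-126-3p, 0.0977 for miR-126-5p, 0.119 for miR-143 and 0.121 for miR-145, so that none passed. An exact permutation of 2 cards against 1 cannot go below p = 0.333.

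Where MDC 1 was taken as a sample of its own beside the mean of MDC 2 and MDC 3, the common SD grew to 0.83 and 40.1% of the 157 miRNAs were lower. The differences were then −8.58 for miR-126-3p (limma adjusted p = 8.27e-21) and −8.25 for miR-126-5p (limma adjusted p = 1.69e-19). Those of miR-143 and miR-145 were −2.94 and −2.16 (limma adjusted p = 0.00105 and 0.0184). Without MDC 1, the differences of miR-126-3p, miR-126-5p, miR-143 and miR-145 were −7.87, −7.57, −2.03 and −1.64 log2 units, and all remained past the threshold. All 4 differences were nearer to 0 without MDC 1.

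Both arms of miR-126 stood near the lower end of the miRNAs tested. Ordered by their difference, miR-126-3p was the 9th and miR-126-5p the 10th of 157 miRNAs, next to each other. The order leaves out 39 miRNAs with signal in myocytes only, of which 34 would stand below miR-126-5p if missing values were set at a Ct of 40. The next lower one was miR-139-5p (−8.89), and the next higher one was miR-30c (−6.48), 1.54 units above miR-126-5p. The arms differed from each other by 0.32 units, and miR-139-5p was 0.55 units below miR-126-3p. The standard error of a difference between 2 such differences was 0.49 with the assays taken as independent. Shifts shared by all assays of a set cancel between 2 assays, so that 0.49 can be too large here. The difference between the arms had an SD of 0.04 between the myocyte cards. miR-143 was 43rd and miR-145 was 54th, in a dense part of the order. The neighbors of miR-143 were miR-652 (−2.91) and miR-26a (−2.46), and those of miR-145 were miR-135a (−2.03) and miR-103 (−1.96). The gaps to these neighbors were 0.27 and 0.18 units for miR-143 and 0.04 and 0.03 units for miR-145. All were less than 0.49, and no error within a set was computed for these gaps.

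**Figure D3:**
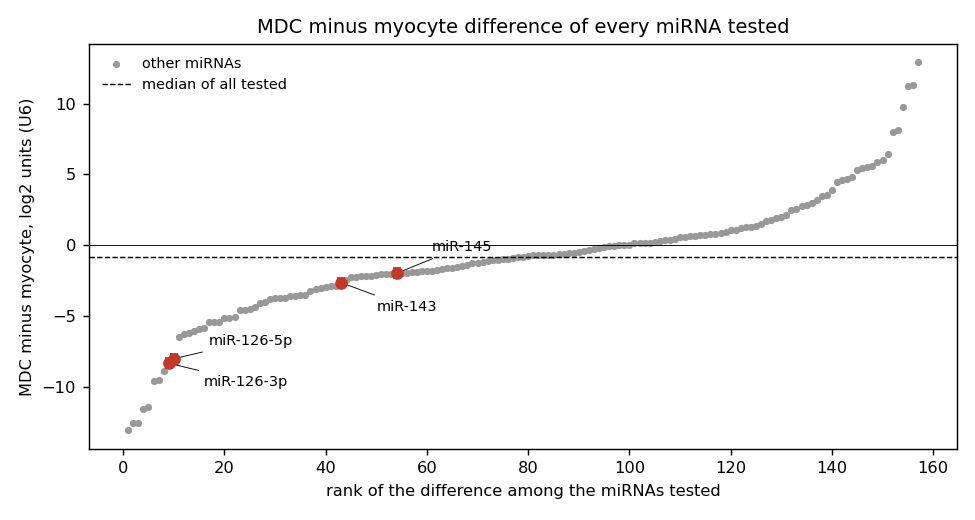
MDC minus myocyte difference (y axis, log2 units relative to U6) of the 157 miRNAs tested, in order of the difference (x axis, rank). Vascular miRNAs are red with their standard error, other miRNAs are gray, and the dashed line is the median of −0.80. miR-126-3p and miR-126-5p hold ranks 9 and 10, and miR-143 and miR-145 hold ranks 43 and 54. Another normalizer shifts all points by the same amount, which turns miR-143 and miR-145 higher with Y1, U87 or the mean of the 3 other controls, and the miR-126 arms with U87.

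The order of the vascular miRNAs by level was the same in both groups, with other distances between them. In MDCs it ran from miR-145 (−2.31) through miR-143 (−5.77) and miR-126-3p (−12.05) to miR-126-5p (−15.14). In myocytes the levels in the same order were −0.32, −3.13, −3.70 and −7.12, and miR-143 and miR-126-3p were the closest neighbors. Levels of different assays also hold their PCR efficiencies, which were not measured. Among the 157 miRNAs tested, miR-145 had the 5th highest level in MDCs and the 6th highest in myocytes. miR-143 was 33rd in MDCs and 17th in myocytes, miR-126-3p 117th and 24th, and miR-126-5p 142nd and 67th. miR-145 thus kept its place among the strongest signals of the card in both groups, whereas miR-126-3p ranked among the weaker ones in MDCs.

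A difference between 2 assays of the same set does not depend on U6 or on any other normalizer. The arms of miR-126 differed by 3.05, 2.98 and 3.24 log2 units in the MDC sets, with 3p above 5p, and by 3.38, 3.46 and 3.42 in the myocyte sets. The ratio of the arms was smaller in MDCs by 0.32 units, or 1.25-fold, against an SD of 0.04 between the myocyte cards. The MDC readings were all below the myocyte sets, and the ratio of the arms was 7.91 to 9.47 in MDC sets and 10.4 to 11.01 in myocyte sets. The level of miR-143 minus that of miR-145 was −3.99, −3.23 and −3.18 units in the MDC sets, and −3.03, −2.63 and −2.56 in the myocyte sets. The difference was lower in MDCs by 0.65 units (1.57-fold), and by 0.39 units without MDC 1, against an SD of 0.31 between the myocyte cards.

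The distance between the pairs was far larger. The mean of the miR-126 arms minus the mean of miR-143 and miR-145 was −9.53, −9.45 and −9.69 units in the MDC sets, and −3.87, −3.50 and −3.50 units in the myocyte sets. The endothelial pair was thus 58.5-fold lower in MDCs relative to the smooth muscle pair (a change of −5.87 units), against an SD of 0.26 between the myocyte cards. The groups were far apart, and leaving out any 1 set gave changes between −6.06 and −5.81. No test was run on these differences within a set.

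**Figure D4:**
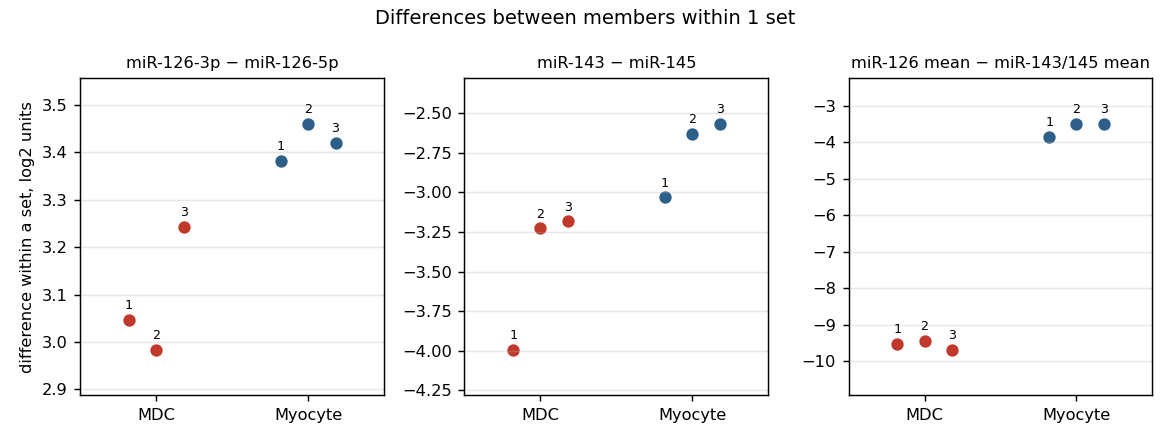
Difference between 2 vascular miRNAs, or between the means of the 2 pairs, within a set (y axis, log2 units, a separate scale in each panel), for the 3 MDC sets (red) and the 3 myocyte sets (blue), with the set number above each point. The difference between the pair means is −9.69 to −9.45 in MDC sets and −3.87 to −3.50 in myocyte sets.

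The size and direction of these differences depended on the small RNA used as normalizer. U6 and snoRNA135, a small nucleolar RNA, had earlier raw Ct values in MDCs, by 0.91 and 0.78 cycles. Y1, a cytoplasmic RNA of the Ro particle, had a Ct of 23.6 in MDCs against 20.0 in myocytes, and U87, another small nucleolar RNA, had 31.8 in MDCs against 18.6 in myocytes. Relative to U6, the differences of Y1 and U87 were thus −4.49 and −14.09 log2 units, and the level of Y1 ranged from −11.09 to −8.01 over the MDC readings. With snoRNA135 in place of U6, the differences were −8.21 and −7.89 for miR-126-3p and miR-126-5p, and −2.51 and −1.85 for miR-143 and miR-145. With the mean of all miRNAs seen in every set they were −7.44, −7.12, −1.74 and −1.08, and with raw Ct −7.43, −7.11, −1.73 and −1.07, all past the threshold.

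With Y1 alone, miR-126-3p and miR-126-5p remained lower, at −3.86 and −3.54, whereas miR-143 and miR-145 turned higher, at 1.85 and 2.50. For miR-143 the sets then overlapped, with MDC readings of 1.03 to 6.03 and myocyte sets of 1.72 to 2.45. Those of miR-145 nearly met, at 5.02 to 9.21 in MDC sets and 4.75 to 5.01 in myocyte sets. The mean of snoRNA135, Y1 and U87 gave −2.11 and −1.79 for the miR-126 arms and 3.60 and 4.25 for miR-143 and miR-145. With U87 alone all 157 miRNAs were higher in MDCs, the miR-126 arms by 5.75 and 6.07. Of 8 settings, raw Ct among them, each miR-126 arm was lower with 7 and higher with 1. miR-143 and miR-145 were each lower with 5 and higher with 3. The settings are not independent, since the mean of the 3 other controls holds Y1 and U87. Relative to the median of all miRNAs tested, the differences of −7.54, −7.22, −1.84 and −1.18 were the same with all 8 settings, since a normalizer shifts every assay of a set by the same amount.

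**Figure D5:**
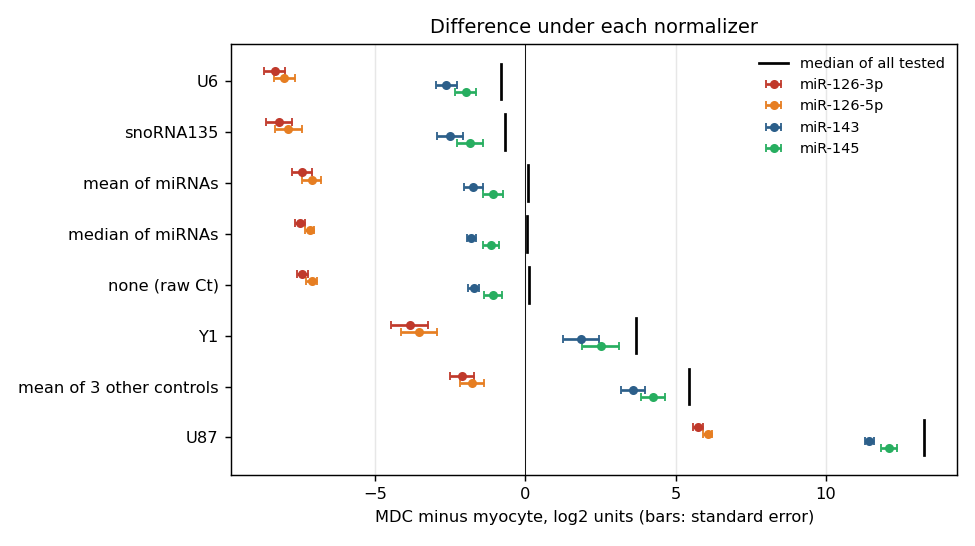
MDC minus myocyte difference (x axis, log2 units, bars are standard errors from limma) of the 4 vascular miRNAs under 8 settings of the normalizer, raw Ct among them (y axis), with the median of the 157 miRNAs tested as a black line. The miR-126 arms lie left of 0 with every setting but U87, and miR-143 and miR-145 lie right of 0 with Y1, with the mean of the 3 other controls and with U87.

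The miRNAs with the most similar pattern were found by the root mean square distance between levels over the 6 sets, each miRNA centered on its own mean. For miR-126-3p the closest of 156 was miR-126-5p, at 0.18 log2 units, followed by miR-139-5p at 0.34 and the cardiac miR-499 at 0.82. For miR-126-5p, the 3p arm was followed by miR-139-5p at 0.48 and miR-30c at 0.79. The 2 arms were thus closer to each other than to any other miRNA. For miR-143 the closest were miR-186 (0.20), miR-27b (0.22) and miR-27a (0.24), and for miR-145 they were miR-135a (0.13), miR-195 (0.14) and miR-24 (0.17). miR-143 and miR-145 were 0.47 apart, and miR-145 was only the 19th closest to miR-143, and miR-143 the 21st closest to miR-145. These distances are over 6 sets of 3 cards and describe mainly the difference between the groups. The Ct of miR-135a was late, at a level of −20.09 in MDCs and −18.06 in myocytes.

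Other miRNAs with known roles in endothelial cells and angiogenesis went in both directions relative to U6. Of 26 such assays on the card, 21 were tested, of which 6 were lower, 10 were higher and 5 did not pass (limma adjusted p under 0.05), where 52.2% of all miRNAs tested were lower and 28% were higher. Of the other assays, MDCs alone gave signal for 3 and myocytes alone for 1, and 1 was seen on only 1 myocyte card. The median difference of the 21 tested was 0.60, against −0.80 over all miRNAs tested. The lowest p among the higher ones belonged to miR-222 (7.99), which restrains endothelial migration and promotes smooth muscle proliferation, and to miR-132 (5.31), which acts in angiogenic endothelium. Those among the lower ones belonged to miR-130a (−4.05), which lowers the anti-angiogenic homeobox factors Gax and Hoxa5 in human cells, and miR-27b (−2.97), which promotes endothelial sprouting. With the mean of all miRNAs as normalizer 4 were lower and 14 higher, and with Y1, U87 or the mean of the 3 other controls 0 were lower and 20 or 21 higher, so that miR-27b turned higher with all of these, as did miR-130a with U87 and with the mean of the 3 other controls.

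Of 17 assays of miRNAs linked to the phenotype of smooth muscle cells, 15 were tested, of which 9 were lower, 3 were higher and 3 did not pass, with 1 more seen in MDCs only and 1 in myocytes only. These counts were near the shares over all miRNAs tested (52.2% lower and 28% higher). The median difference of the 15 tested was −1.01, against −0.80 over all miRNAs tested. miR-133a (−12.59) and miR-1 (−9.55), which also repress smooth muscle growth but are far more abundant in striated muscle, had the lowest p among those lower. This miR-1 value is that of the assay mmu-miR-1. Another miR-1 assay of the card, rno-miR-1, is not in this list and had a difference of −11.61. miR-222 (7.99) and miR-21 (4.46), which both promote the proliferative state of smooth muscle cells, had the lowest p among those higher. With Y1 or with the mean of the 3 other controls only miR-133a and miR-1 remained lower and 13 were higher, and with U87 all 15 were higher. Both lists share miR-10a, miR-24, miR-100, miR-221 and miR-222, and miR-21, miR-31 and miR-155 stand in marker lists of other cells too.

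Markers of other cells on the card moved with the groups, and their part in the vascular results was not tested. The summed linear level of 8 striated muscle assays, mmu-miR-1 and rno-miR-1 among them, was 0.00366 to 0.00636 in MDC sets and 20.0 to 23.8 in myocyte sets, relative to U6. Of these, 5 were lower in MDCs (higher with U87 as normalizer) and 3 had no signal there, among them miR-208 and miR-208b. The sum of 5 fibroblast assays was 0.286 to 0.551 in MDC sets and 0.0163 to 0.0177 in myocyte sets, with 4 higher and the other, miR-199a-5p, seen in MDCs only. That of 5 leukocyte assays was 0.00805 to 0.0409 in MDC sets and 0.0550 to 0.0608 in myocyte sets, with 3 lower, 1 higher and 1 seen in MDCs only relative to U6. These sums rest on different miRNAs. The highest level was that of miR-150 in myocytes (−4.24, against −16.78 in MDCs) and that of miR-155 in MDCs (−5.49, against −8.27 in myocytes). The erythroid miR-451 had no signal in MDCs and a level sum of 1.74e-06 to 3.20e-06 in myocyte sets.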

How the data were processed

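Total RNA of MDCs and myocytes was reverse-transcribed, pre-amplified and run by the authors on TaqMan Rodent MicroRNA Set A cards by real-time PCR. Deposited values are raw Ct scores in PCR cycles from SDS software, with threshold and baseline settings not given in the sources used here. Undetermined wells and wells at 40 were read as no signal. A second table made by the authors holds the same Ct scores minus mean U6, and it differed from the Ct files by at most 5e-05 cycles. Controls were left out of the 375 miRNAs. Levels were minus (Ct minus mean U6 Ct), readings of 1 card were averaged, and miRNAs with signal on every card were fitted with limma 3.58.1 in R 4.3.3, with Benjamini-Hochberg adjustment over all miRNAs tested and a threshold of 0.05. Sequences and positions are from RefSeq (GRCr8), and figures were drawn with matplotlib 3.10.9.

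The members and lists were chosen with earlier results of these data known. Beside the members, the text names the endogenous controls, the 3 miRNAs closest to each member over the 6 sets, the neighbors in the order of differences and, in the endothelial and smooth muscle lists, the up to 2 miRNAs with the lowest p in each direction. Other marker miRNAs named were chosen after their values were seen. Alternatives were other normalizers, raw Ct, limits of Ct 35 and 32, missing values at 40, other definitions of a sample, the replicate number as a block, trend and robust moderation, the unpaired test of the methods and leaving out each set. MDC 1 as a separate sample was an alternative chosen after seeing the data.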

Additional observations from a re-analysis of the deposited data

How the results depend on the processing

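For each vascular miRNA 29 alternatives were run, 28 of them with a test. The miR-126 arms kept their direction and call in 26 of these, miR-143 in 24 and miR-145 in 23. With U87 alone all 4 turned higher, by 5.75 (miR-126-3p), 6.07 (miR-126-5p), 11.45 (miR-143) and 12.11 (miR-145) log2 units. miR-143 and miR-145 turned higher also with Y1 alone (1.85 and 2.50) and with the mean of snoRNA135, Y1 and U87 (3.60 and 4.25). With Y1 the MDC and myocyte sets of miR-143 overlapped. The counts of miRNAs lower and higher, 82 and 44 with U6, became 0 and 157 with U87, 16 and 120 with Y1, and 10 and 140 with the mean of these controls. With missing values at 40, 80 of 240 were higher, and with MDC 1 as a separate sample 28 were higher. The unpaired test of the methods on 1 MDC card and 2 myocyte cards, each miRNA with its own spread, called 43 lower and 20 higher without adjustment, where miR-145 (−1.99) did not pass, and 0 and 0 after adjustment, where the differences of −8.35, −8.03, −2.64 and −1.99 did not pass either. By limma the same cards gave 82 and 44.

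Leaving out each set in turn gave differences from −8.60 to −7.87 for miR-126-3p, −8.30 to −7.57 for miR-126-5p, −3.00 to −2.03 for miR-143 and −2.20 to −1.64 for miR-145, with 74 to 87 miRNAs lower and 38 to 54 higher. Without Myocyte 1, 1 card stood against 1 and only the value could be given. The change of the 3p minus 5p difference of miR-126 was −0.36, −0.43 and −0.17 with MDC 1, MDC 2 and MDC 3 alone, and −0.40 to −0.27 with 1 set left out. That of miR-143 minus miR-145 was −1.18 with MDC 1 alone and −0.87 to −0.39 with 1 set left out, and that between the pairs was −6.06 to −5.81.

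With all 6 sets as samples and the replicate number as a block, the differences were −8.41, −8.08, −2.68 and −1.95, with 69 lower and 34 higher, and no call of a vascular miRNA changed. Same-numbered sets had correlations of 0.12, −0.08 and 0.24 of their deviations over 157 miRNAs, and sets with different numbers had −0.19 to 0.08. Since several sets were taken as readings of 1 card, these values cannot show whether sets of the same number were paired.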
